A study of Mus musculus with 6 samples.

Results

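The motile cilia and axoneme genes were examined in microglia isolated after acute ischemic stroke (AIS). They were taken from the array by name. Members were the genes whose RefSeq symbol begins with Cfap, Dnah, Dnai, Tekt, Rsph or Drc, together with Foxj1, Ubxn10, Ankrd45, Nme5, Dynlrb2, Mlf1, Ccdc39, Ccdc40, Ccdc113 and Ccdc153. This rule found 68 genes with 109 probes, of 23462 named genes and 56605 probes that are not controls. They were 32 Cfap, 10 Dnah, 2 Dnai, 5 Tekt, 7 Rsph and 3 Drc genes and 9 of the genes named singly, since Ccdc40 had no matched probe. The set was proposed because some of these genes stood out between the genotypes on these same arrays. The difference between the genotypes is therefore given for the members as a description, without a test, and supports nothing by itself.

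Primary microglia had been selected from the brain with an antibody against P2RY12 and profiled on single-colour Agilent arrays, 1 array per sample. The control group held 3 samples from PGC-1α f/f mice, which carry a loxP-flanked PGC-1α allele and an eGFP tag and do not overexpress PGC-1α. The mPGC-1α group held 3 samples from mice that carry the same allele and an inducible Cre, which tamoxifen activates and the microglial gene Cx3cr1 drives, so that PGC-1α, a transcriptional coactivator of mitochondrial genes, should be overexpressed in microglia. The controls were littermates, all mice had a C57BL/6 background, all were labelled as male and 10 weeks old, and both groups had AIS, so the arrays hold no sample without stroke. The study describes the occlusion as following tamoxifen in both genotypes, and no source says how many mice each sample held. The p-values below therefore measure only the spread between these samples, which may be technical.

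Motile cilia beat by sliding the doublet microtubules of their core, the axoneme, against one another. Dynein arms drive the sliding, radial spokes and the nexin-dynein regulatory complex control it, and proteins inside the doublets hold them together. In the brain, such cilia are borne by ependymal cells, which line the ventricles, and the transcription factor FOXJ1 switches on their genes. Microglia are not known for motile cilia.

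Some facts of the whole series bear on every value below. The microglial markers P2ry12, Tmem119, C1qa and Ctss were well above background on all 6 arrays when spots marked as outliers were kept. None of them was tested. The label of the overexpressed gene was not borne out by its probes on these arrays. In other samples, the paper reports higher PGC-1α in mPGC-1α microglia, by immunostaining and by mRNA of cultured cells. Whether the probes here read the overexpressed transcript was not examined. The brighter Ppargc1a probe differed by -0.31 (standard error, SE, 0.24) between the groups, with an adjusted p = 0.798 by limma, and the other by -0.41. Cx3cr1, which drives the Cre, lay at 3.66 to 4.19 on the control arrays and 2.36 to 3.13 on the mPGC-1α arrays on its tested probe. This difference was -1.23 (SE 0.24), without overlap, with an adjusted p = 0.684 by limma. The paper names the Cre line as an allele of Cx3cr1 itself, so by genotype the groups also differ at this gene. What the Cx3cr1 difference says about the genotype or the labels was not tested. Control array 2 alone carried signal of the Y-linked gene Ddx3y, at a level of -2.69 against -8.88 to -7.23 on the other 5 arrays. Its Xist level was -4.83 against -0.57 to -0.11. All samples were labelled male, so in these genes the other 5 arrays go against the label and control array 2 does not. Because control array 2 stands apart, results are also given without it. The arrays numbered 3 shared a second slide, where 73.5% and 71.0% of spots were well above background against 83.5% to 86.5% on the first. Levels are given as log2 intensities relative to the array's own 75th percentile, and a difference is always that of mPGC-1α minus control. In such bulk samples, fewer cells of a type and less RNA per cell cannot be told apart.

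Promoters of the members were searched for the X-box, which is bound by RFX factors, and for the forkhead motif, because both families of factors are known to act on genes of motile cilia. RefSeq promoters (assembly GRCm38.p6) reached from 250 bases before the start of the gene to 50 bases after it. Those on 1 chromosome were left out, for members and for all genes alike. Among the rest, a promoter was found for 57 of the 68 members. The short form of the X-box, with 1 free base, was searched on both strands. It lay in the promoters of 3 of these 57 genes (5.26%), against 1.33% of all 27025 genes whose promoters were searched. The long form, a repeat of the motif on both strands with 4 free bases, lay in another 2 genes (3.51%, against 0.529%), and the forms can overlap. The forkhead motif GTAAACA lay in 6 genes (10.5%, against 4.05%), namely Cfap20, Cfap43, Dnah17, Mlf1, Tekt3 and Ubxn10. Its shorter core TAAACA, which GTAAACA contains, lay in 13 genes (22.8%, against 15.1%). The 5 stretches that hold an X-box are printed because they show the letters of the motif in its place, with the motif in capitals and each stretch read 5′ to 3′ on the strand of its gene. A match describes the letters only.
Ankrd45, chr1:161142624-161142696, + strand, short X-box read from the other strand: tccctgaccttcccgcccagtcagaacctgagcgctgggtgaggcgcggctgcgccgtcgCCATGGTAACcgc
Cfap97d2, chr8:13705806-13705888, + strand, short X-box read from the other strand: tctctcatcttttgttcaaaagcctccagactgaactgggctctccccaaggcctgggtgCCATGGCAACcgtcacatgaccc
Cfap74, chr4:155409193-155409222, + strand, short X-box: gcagccttccGTTGCCATGGagctgcgcgc
Cfap298, chr16:90934984-90935097, - strand, long X-box: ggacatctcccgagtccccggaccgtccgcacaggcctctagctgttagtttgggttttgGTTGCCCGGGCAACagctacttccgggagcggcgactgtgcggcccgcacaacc
Cfap20dc, chr14:8666339-8666452, - strand, long X-box: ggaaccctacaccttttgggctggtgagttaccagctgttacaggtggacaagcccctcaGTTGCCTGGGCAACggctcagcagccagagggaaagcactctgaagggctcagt

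RNA of most members was measured. Of the 109 probes, 79 were well above background on all 6 arrays and 7 on none. A probe entered the fit if it was well above background on every unmarked array of at least 1 group. This held for 92 probes of 63 genes, of which 81 passed through both groups and 11 only through the control group. These 11 had to be dim on an mPGC-1α array, so they would tilt any count towards lower values. The other 17 probes were not tested. The 5 genes without a tested probe were Cfap58, Cfap97d1, Dnah5, Dnah10 and Tekt3, and the single probes of Cfap97d1 and Dnah10 were well above background on no array. Dnah5, a heavy chain of the outer dynein arm, was well above background on 3 arrays, at levels between -7.30 and -5.75 over all 6.

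On the probe of each gene with the highest mean signal, 46 of the 63 tested members were lower on the mPGC-1α arrays and 17 were higher. Over all 18222 tested genes, 36.0% were lower. The median difference was -0.24 for the members and 0.11 for all tested genes. The difference was 2-fold or more towards lower values for 6 members, beside 2.12% of all genes, and for 0 members towards higher values, beside 1.13%. For 10 members all 3 mPGC-1α levels lay below all 3 control levels, beside 3.45% of all genes, and the reverse held for 0 members, beside 8.48%. Over all 92 probes, 71 were lower (39.9% of all tested probes), 14 of them 2-fold or more (4.34%), and 0 were 2-fold or more higher (1.07%). Without overlap, 23 lay below the controls (4.66%) and 0 above them (6.8%), and the median was -0.46 against 0.08. Over the 81 probes that passed through both groups, 61 were lower, 6 of them 2-fold or more, with a median of -0.38. Without control array 2, 42 of 63 members were lower, their median was -0.18 and that of all tested probes 0.19, and 14 of 91 member probes were 2-fold or more lower (15.4%), beside 7.63% of all probes in that setting. The arrays were also compared within same-numbered pairs, because the replicate numbers were treated as pairing them. In all 3 pairs 29 of 61 members with 6 values were lower, beside 11.4% of all genes, and 1 member (Ccdc153) was higher, beside 22.1%. Because the members were chosen from this contrast, nothing is read from these counts. No probe on the array passed an adjusted p of 0.05 by limma (0 of 40745, 0%), while 4.52% were lower and 2.65% higher at an unadjusted p below 0.05. With the replicate number as a block, 1 probe of the array passed (0.00245%), and it was the Mmp12 probe A_55_P2024803, which is no member. These counts hung on single choices. Without control array 2, 2102 of 39288 tested probes passed, 7 of them among the 91 tested member probes. Under the block with the percentile taken over unmarked spots alone, a setting chosen after seeing the data, 1720 passed, 11 of them member probes.

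**Figure D1:**
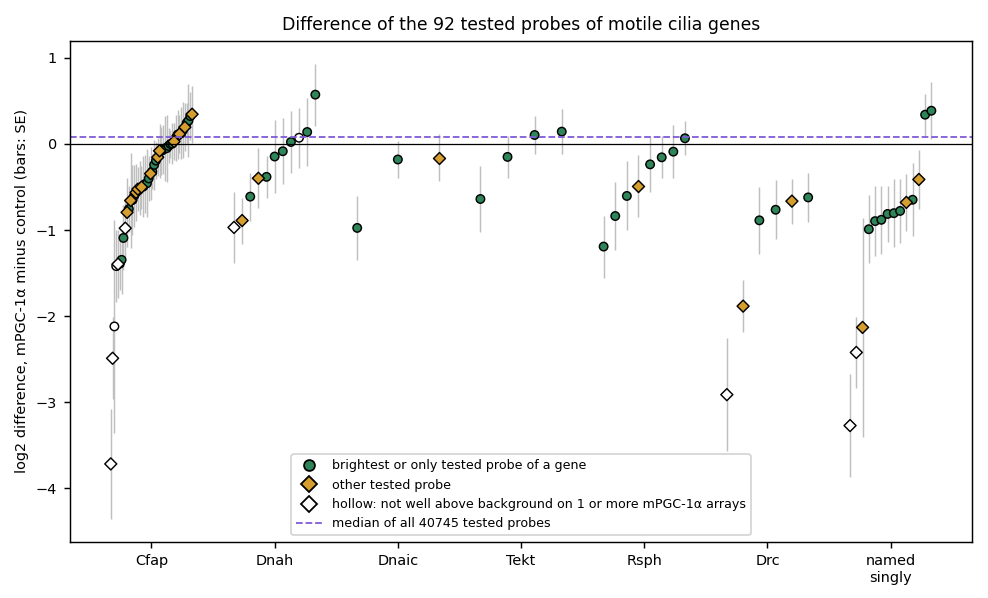
Log2 difference between the group means (mPGC-1α minus control, y axis) of the 92 tested probes, by gene family (x axis), with bars for the SE of the limma fit. Green circles are the brightest or only tested probe of a gene, yellow diamonds are other probes, and the dashed line is the median of all 40745 tested probes (0.08). Hollow points mark probes not well above background on 1 or more mPGC-1α arrays, whose size is not fixed by the measurement. Most of the lowest points are hollow diamonds.

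Foxj1, the transcription factor that switches on the genes of motile cilia, was measured by 1 probe. In the order of their numbers, the control arrays read 0.46, 1.82 and 0.92, and the mPGC-1α arrays read -0.58, 0.62 and 0.19. Control array 2 was the highest and mPGC-1α array 1 the lowest, and the groups overlapped, since mPGC-1α array 2 lay above control array 1. The difference was -0.99 (SE 0.40, n = 3 and 3), and it was -0.61 without control array 2. Within the same-numbered pairs it was -1.05, -1.20 and -0.73, lower each time, and the SE with the replicate number as a block was 0.22. This smaller SE depends on a pairing inferred from the arrays, since the labels do not say what the numbers mean. The brightest probes of Rsph1, Tekt1, Drc7, Drc3, Ccdc113, Ubxn10, Nme5, Mlf1 and Dynlrb2, whose groups overlap in the values below, were likewise lower within all 3 pairs. Those of Dnah9, Tekt4 and Ccdc39 were not. This held for 29 of 61 members, beside 11.4% of all genes, and nothing is read from it because the members were chosen from this contrast. In the fixed list of the other regulators of multiciliation, 8 of 15 tested genes were lower and 7 higher, with a median difference of -0.00. Without overlap, 0 were lower (3.45% of all genes) and 2 were higher (8.48%). Rfx2 and Rfx3, which encode X-box factors, differed by -0.75 and -0.23, and Mcidas, an inducer of multiciliated cells, by 0.31.

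The dynein arms gave mixed values. Of the 6 tested genes of the outer arm, 5 were lower, with a median of -0.16. Dnaic2 encodes an intermediate chain of this arm, and its level was -2.50, -1.79 and -1.71 on the control arrays and -3.65, -2.61 and -2.68 on the mPGC-1α arrays. All mPGC-1α levels lay below the controls, and the difference was -0.98 (SE 0.37) on this probe but -0.16 on the second one (A_66_P124267), where the groups overlapped. Dnaic1, the partner chain, differed by -0.18 (SE 0.21). Among the heavy chains, Dnah11 was without overlap lower (-0.61, SE 0.28), whereas Dnah9 had the largest positive difference of any member. The Dnah9 level was 1.52, 3.20 and 2.54 on the control arrays and 2.94, 3.09 and 2.96 on the mPGC-1α arrays, so the mPGC-1α arrays were alike and the control arrays spread around them. Its difference of 0.57 (SE 0.36) became 0.12 without control array 1 and 0.96 without control array 2. A second Dnah9 probe (A_52_P188874) was well above background on no array.

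Genes of the inner dynein arm and its tethers were about as often higher as lower. Of 9 tested, 4 were lower and 5 higher, with a median of 0.02. Dnah6, a heavy chain, differed by -0.38 (SE 0.25) on its brightest probe, with levels of -1.10, -1.37 and -0.82 on the control arrays and -1.58, -1.50 and -1.35 on the mPGC-1α arrays. On the second Dnah6 probe (A_51_P121134) the control arrays lay between -2.63 and -2.58 and the mPGC-1α arrays between -3.68 and -3.30, a difference of -0.89 without overlap. Dnah1 differed by 0.02 on its brightest probe and by -0.97 on the other (A_51_P368237), which 2 of the 3 mPGC-1α arrays measured above background. With the unmeasured array at its weakest detectable signal (the lowest level among its probes well above background, or the level of the probe itself if higher), that difference was -0.47. Cfap43 and Cfap44, which tether inner arms, differed by -0.65 and -0.08 on their brightest probes. Cfap298 and Cfap300, which are needed for the assembly of dynein arms, differed by -0.40 and 0.32. The Cfap300 value rests on 2 arrays of each group, because the spots of both second-slide arrays were marked as outliers, and the authors' own log2 values gave -0.04. Its other probe (A_55_P2743750) differed by -0.50 without overlap.

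Of the 9 tested genes of the radial spokes, 8 were lower. The spoke head gene Rsph1 had levels of 1.72, 2.83 and 1.95 on the control arrays and 0.47, 1.78 and 1.74 on the mPGC-1α arrays. The low value came from mPGC-1α array 1, and the groups overlapped. The difference of -0.84 (SE 0.40) was -1.15 on slide 1, -0.21 on slide 2 and -0.41 without mPGC-1α array 1. For Rsph4a, another gene of the spoke head, the levels were -3.74, -2.92 and -3.27 on the control arrays and -4.97, -4.08 and -4.45 on the mPGC-1α arrays. The groups did not overlap, and the difference of -1.19 (SE 0.36), or 2.29-fold lower, came to -1.20 on slide 1, -1.19 on slide 2 and -0.57 after background correction by normexp with quantile normalization. Rsph9 differed by -0.60 and -0.49 on its 2 probes, the first without mPGC-1α array 3, which was marked as an outlier. Cfap206, a protein of the spoke base, was without overlap lower by 2.54-fold (-1.35, SE 0.40) on its brightest probe, or by -0.75 after normexp. On the second Cfap206 probe (A_55_P2057979) the difference was -0.79 (SE 0.40), with overlap. Rsph3b, Rsph3a, Rsph6a and Rsph14 lay between -0.24 and 0.07.

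Genes of the nexin-dynein regulatory complex, with the ruler gene Ccdc39, gave a median of -0.69 over 6 tested members, 4 of them lower. Drc7 had levels of 0.87, 1.95 and 1.28 on the control arrays and -0.37, 0.87 and 0.93 on the mPGC-1α arrays, with control array 1 at the level of mPGC-1α array 2, and a difference of -0.89 (SE 0.39). A second Drc7 probe (A_52_P127270) separated the groups by more, with 0.74, 0.01 and 0.63 against -1.91, -1.28 and -1.08, a difference of -1.88 (SE 0.30) or 3.69-fold lower. The third Drc7 probe gave -0.66, also without overlap. Drc1, which is needed for the complex to form, was without overlap lower (-0.62, SE 0.29). Ccdc113 had levels of -0.35, 0.59 and -0.12 against -1.70, -0.49 and -0.33, and its difference of -0.88 (SE 0.39) shrank to -0.45 without mPGC-1α array 1. Ccdc39 and Ccdc153 were among the higher members, at 0.34 (SE 0.24) and 0.39 (SE 0.33), and their groups overlapped. The dimmer Ccdc39 probe (A_55_P2616170) went the other way, at -0.68 without overlap.

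**Figure D2:**
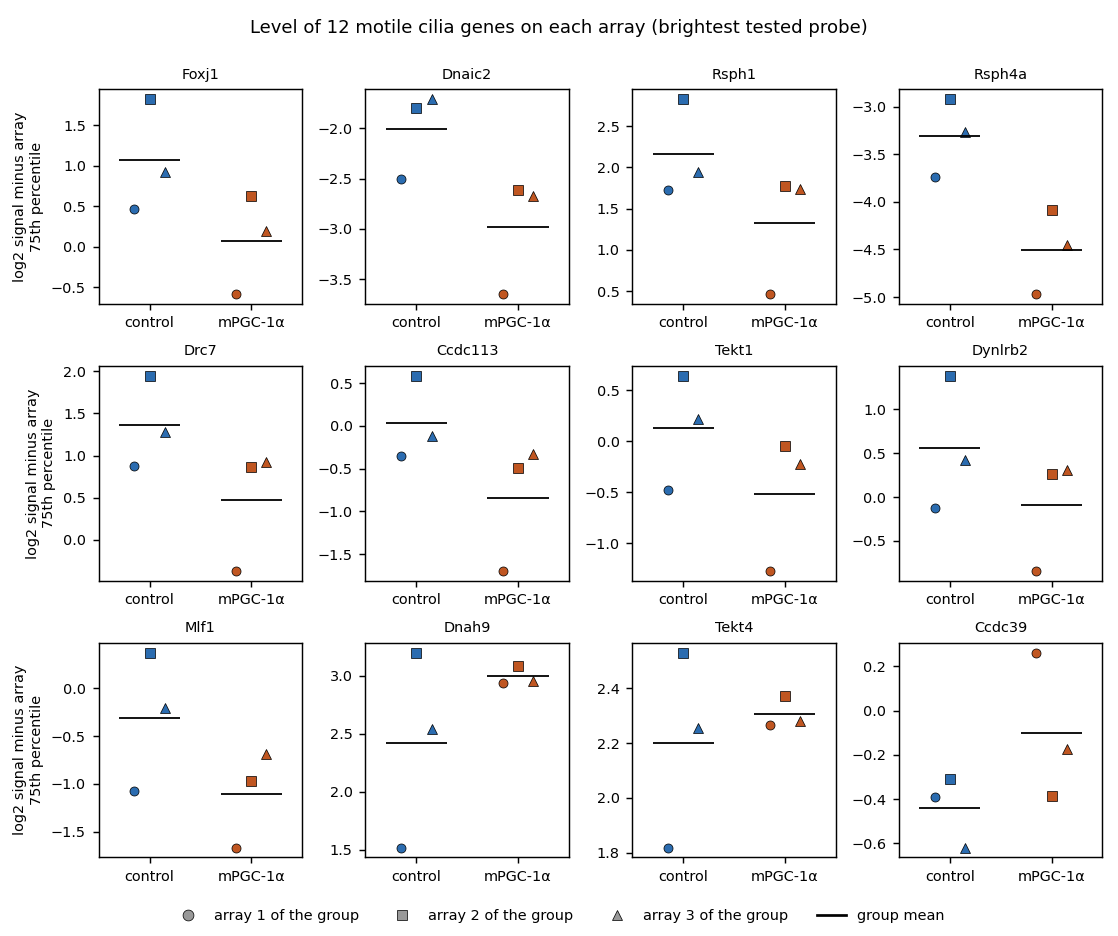
Level of 12 members on each array (y axis, log2 signal minus the 75th percentile of the array, with a scale of its own in each panel), for control (blue) and mPGC-1α (orange) arrays 1 to 3 by marker shape, with group means as lines. In most panels control array 2 (blue square) is the highest control and mPGC-1α array 1 (orange circle) is the lowest of all 6. In the Foxj1 panel they lie at 1.82 and -0.58. Dnah9, Tekt4 and Ccdc39 are higher on average in mPGC-1α.

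Proteins of the doublet microtubules gave 8 lower and 3 higher of 11 tested members, with a median of -0.24. Tekt1, a tektin, had levels of -0.48, 0.64 and 0.22 on the control arrays and -1.27, -0.05 and -0.22 on the mPGC-1α arrays. The groups overlapped, and the difference of -0.64 (SE 0.38) was -0.26 without mPGC-1α array 1. Tekt4, in contrast, differed by 0.10 (SE 0.22), and its sign turned to -0.09 without control array 1. Tekt2 and Tekt5 differed by 0.14 and -0.15. Cfap161 was without overlap lower by 2.62-fold, with levels of -2.66, -2.35 and -2.14 against -4.19, -3.45 and -3.69, and its difference was -1.39, or -0.79 after normexp. Cfap126 differed by -0.49 and -0.56 on its 2 probes. Cfap45 had the largest difference of all brightest probes (-2.12, SE 1.24), but it rested on 1 array. Its levels were -2.78, -2.14 and -3.07 on the control arrays and -8.42, -2.96 and -2.98 on the mPGC-1α arrays, and that array was not well above background. The difference was -1.50 with this array at its weakest detectable signal and -0.30 without it.

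Of the 5 tested genes of the central apparatus, 2 were lower and 3 higher. Cfap74 was alike on all 6 arrays of its brightest probe, between 3.82 and 3.93, with a difference of -0.00 (SE 0.16). Its sign varied with the scaling, and quantile normalization gave -0.16. Cfap69 had levels of -0.19, 0.70 and 0.39 against -0.61, -0.30 and -0.46, without overlap, a difference of -0.76 (SE 0.27). Cfap54, Cfap46 and Cfap221 differed by 0.00, 0.11 and 0.27. In the fixed list of other proteins of the central apparatus and axoneme, 21 of 24 tested genes were lower (36.0% of all genes), with a median of -0.49. Without overlap, 0 were higher (8.48% of all genes) and 9 were lower (3.45%). These included Ak7, an adenylate kinase (-2.57, SE 0.56), Ak8 (-1.16, SE 0.33) and Gas8, a subunit of the nexin-dynein regulatory complex (-0.96, SE 0.31). On mPGC-1α array 3, Ak7 and Lrrc34, another of the 9, were at -5.13. This was below the weakest signal well above background on that array (-4.96). Both genes entered through the control group alone, so the size of their differences is not fixed by the measurement. Such probes tilt the count of 9 towards lower values. Hydin and Spef2, of the central pair, differed by 0.07 and 0.05, and Spef1 by 0.28. None of the 24 passed the adjusted threshold in limma, and 8 were lower at an unadjusted p below 0.05, beside 4.52% of all tested probes. This list and the others below were not used by the rule, but were compiled with earlier results of these arrays known.

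The remaining members named singly were lower as well. Nme5, a protein linked to the radial spokes, had levels of 1.13, 2.59 and 1.89 on the control arrays and 0.53, 1.41 and 1.34 on the mPGC-1α arrays. The groups overlapped, and the difference was -0.78 (SE 0.38). On its second probe (A_55_P1966102) the difference was -2.13 (SE 1.27), which again came from mPGC-1α array 1 at -5.52, since the other mPGC-1α arrays were at 0.15 and 0.04 and the control arrays between -0.28 and 0.97. Without that array the difference was -0.26. Dynlrb2, a light chain of cytoplasmic dynein, had levels of -0.13, 1.38 and 0.42 against -0.84, 0.26 and 0.31, and its difference of -0.65 (SE 0.43) was -0.24 without control array 2. Mlf1 had levels of -1.08, 0.37 and -0.21 against -1.67, -0.97 and -0.69, a difference of -0.80 (SE 0.39), or -0.46 without control array 2. Both genes overlapped between the groups, with control array 1 at the level of the mPGC-1α arrays.

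The largest differences stood on second probes of a gene. Ubxn10 encodes an adaptor of the ATPase p97 that acts in cilia. Its brightest probe (A_55_P2797826) had levels of -1.43, -0.32 and -0.93 on the control arrays and -2.62, -1.32 and -1.42 on the mPGC-1α arrays. The groups overlapped here too, with a difference of -0.90 (SE 0.41). Its dimmest probe (A_52_P505277) had -2.31, -4.48 and -2.53 against -6.23, -5.82 and -7.09, and mPGC-1α array 3 was not well above background. With that array at its weakest detectable signal, the difference was -2.56, or 5.91-fold lower. The order of the control arrays was turned round. Control array 2 was the highest control on the first probe and the lowest on the other. Among the dimmer probes of all genes with several tested probes it was the lowest control in 44.5%, against 41.4% of the members' dimmer probes.

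Drc3, a subunit of the nexin-dynein regulatory complex, showed the same turn. For Cfap52, which lies inside the doublets, control array 2 was the lowest control on the dim probe, but control array 3 was the highest on the bright one. On the brightest Cfap52 probe (A_51_P288558) the levels were -2.28, -1.74 and -1.60 against -3.75, -2.61 and -2.54, a difference of -1.09 (SE 0.38) without overlap. On the other (A_66_P136436) they were -2.39, -4.80 and -2.20 on the control arrays, while all 3 mPGC-1α arrays were not well above background. With each mPGC-1α array at its weakest detectable signal, or at the signal of the probe if higher, the controls were 7.02-fold higher. This is no firm lower limit, because a probe above the weakest detectable signal can also fail the background flag. The brightest Drc3 probe (A_55_P2498773) gave 0.03, 0.97 and 0.51 against -0.91, 0.14 and -0.00, a difference of -0.76 (SE 0.34). The other (A_55_P2142738) gave -2.42, -4.76 and -1.83 against -6.08, -5.90 and -5.78, and 2 of the 3 mPGC-1α arrays were well above background. With the other array at its weakest detectable signal, the difference was -2.64, or 6.23-fold lower. On the same footing and without control array 2, the dim probes differed by -3.25 for Ubxn10 and -3.52 for Drc3, and the controls were 12.5-fold higher for Cfap52. After normexp, which adds an offset of 50 to every signal, the dim probes of Ubxn10, Cfap52, Drc3 and Ankrd45 differed by -1.13, -1.14, -1.23 and -0.58.

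Cfap69 and Ankrd45 had a dim probe of the same kind. On the dim Cfap69 probe (A_66_P108380) control array 2 was again the lowest control, at -4.21 against -3.09 and -2.64. Of its mPGC-1α arrays 2 were well above background, and with the other at its weakest detectable signal the difference was -2.02. Ankrd45, a protein with ankyrin repeats whose promoter stretch is printed above, differed by -0.81 (SE 0.32) on its brightest probe, with levels of -2.86, -2.88 and -2.52 against -4.01, -3.08 and -3.61 and no overlap. On its other probe (A_52_P214772) the control arrays lay between -4.81 and -4.17, and no mPGC-1α array was well above background. Counted in the same way, the controls were 2.73-fold higher, which is no firm lower limit, and the difference after normexp was -0.58. The single tested probe of Cfap97d2, which also has a short X-box, was without overlap lower. It was measured above background by 2 of the 3 mPGC-1α arrays and differed by -0.99 with the other at its weakest detectable signal. Cfap74, Cfap298 and Cfap20dc, the other members with an X-box, differed by -0.00, -0.40 and 0.12 on their brightest probes. The dimmer Cfap20dc probe (A_55_P2728852) went the other way without overlap, at -1.05 with its 1 unmeasured mPGC-1α array at its weakest detectable signal.

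**Figure D3:**
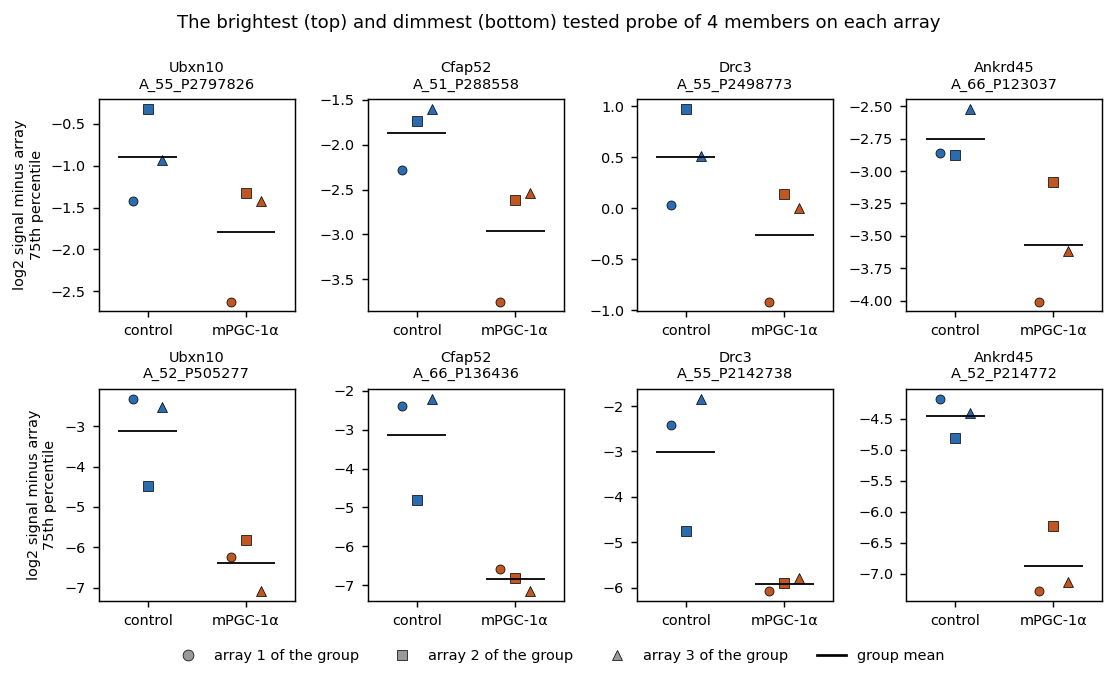
Level on each array (y axis, log2 signal minus the 75th percentile of the array, with a scale of its own in each panel) of the brightest (top row) and the dimmest (bottom row) tested probe of Ubxn10, Cfap52, Drc3 and Ankrd45. Marker shape gives the array of each group and lines give group means. Control array 2 (blue square) is the highest control for Ubxn10 and Drc3 in the top row, at -0.32 and 0.97, and the lowest control in all 4 bottom panels, down to -4.81.

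How far the probes of a gene differ could be set against all genes with several tested probes. There were 26 such members with 55 probes. The difference between the genotypes spread over more than 1 log2 unit among the probes of 9 members (34.6%), against 19.1% of all 6367 such genes. It spread over more than 2 units for 3 of the 26 members, Ubxn10, Cfap52 and Drc3, against 3.30% of all such genes. Among members with exactly 2 tested probes the share above 1 unit was 30.4%, against 15.6% of all such genes. These spreads use the contrast by which the members were proposed, and the low probes of the 3 genes entered through the control group alone, so nothing is read from the shares. Over probes that passed through both groups, 3 of 18 members (16.7%) spread over more than 1 unit, against 16.2% of 5881 genes, and 0 over more than 2 units, against 2.26%. The lowest difference was on a probe other than the brightest in 19 of the 26 members (73.1%), against 71.7% of all such genes. The median difference of the 26 brightest probes was -0.35 and that of the 29 others -0.66. The probe sequences and the transcripts they detect were not analysed here.

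**Figure D4:**
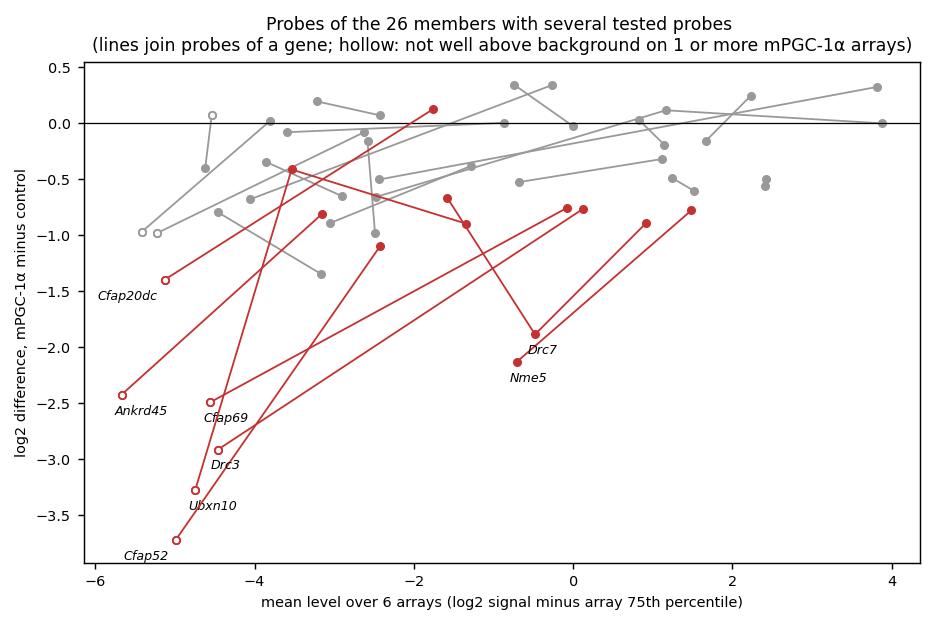
Log2 difference (mPGC-1α minus control, y axis) against the mean level over the 6 arrays (x axis, log2 signal minus the 75th percentile) for the probes of the 26 members with several tested probes, with a line joining the probes of a gene. Genes in red are labelled at their lowest probe. Hollow points were not well above background on 1 or more mPGC-1α arrays, so their size is not fixed by the measurement. For Cfap52, Ubxn10 and Drc3 the line drops by more than 2 units, to a hollow point.

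The arrays of a group also differed among themselves. This comparison is not free of the choice of members, since a single high control array or low mPGC-1α array also enlarges the difference between the genotypes. Nothing is therefore read from the shares below. Over the 61 members with 6 values on the brightest probe, control array 2 was the highest control for 49 (80.3%), against 62.0% of all 16191 such genes. Control array 1 was the lowest control for 38 (62.3%, against 46.8%). Among the mPGC-1α arrays, array 1 was the lowest for 35 members (57.4%, against 31.6%). It lay 1 log2 unit or more below the mean of the other mPGC-1α arrays for 12 of 61 members (19.7%, against 4.13% of all genes), and as far above it for 0 (against 1.82%). The median distance of control array 2 above the mean of the other controls was 0.53 for the members and 0.32 for all genes. For mPGC-1α array 1 the median distance from the others of its group was -0.13 for the members and 0.02 for all genes. The summed signal of all 68 members was 6.28, 6.98 and 6.65 on the control arrays and 6.42, 6.55 and 6.52 on the mPGC-1α arrays (log2 of the sum over the brightest probe of each gene, minus the 75th percentile). These sums overlapped, with control array 1 lowest and control array 2 highest.

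Markers of ependymal cells and of the choroid plexus epithelium were set beside the members. Of 19 ependymal marker genes on the array, 16 were tested, 13 of them lower and 3 higher, with a median of -0.36. Tmem212 and Sntn, which mark these cells, were well above background on no array, while Pifo differed by -0.80 (SE 0.38) and Tppp3, which associates with microtubules, by 1.03 (SE 0.24) without overlap. The summed ependymal level was 4.38 to 5.38 on the control arrays and 4.36 to 4.99 on the mPGC-1α arrays, lowest on mPGC-1α array 1 and highest on control array 2. Of 17 tested markers of the choroid plexus epithelium, 15 were lower and 2 higher, with a median of -0.61. Its defining gene Ttr, a thyroid hormone carrier, was not tested. With spots marked as outliers kept, it was well above background on all 6 arrays, at 5.72 to 6.21 in both groups. The summed choroid plexus level was 7.40 to 8.01 on the control arrays and 7.27 to 7.76 on the mPGC-1α arrays, again lowest on mPGC-1α array 1 and highest on control array 2. None of these markers passed the adjusted threshold in limma. At an unadjusted p below 0.05 there were 1 ependymal marker and 3 choroid plexus markers lower, beside 4.52% of all tested probes. There were 2 ependymal markers higher, beside 2.65%. The part of these cells in the members' values was not tested.

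Genes of intraflagellar transport, the traffic that builds all cilia, had a median of -0.18, with 17 of 28 lower. Of these genes 4 were without overlap lower (3.45% of all genes), among them Ift172 (-0.73, SE 0.23) and Ift46 (-0.50, SE 0.22). Without overlap, 1 was higher (8.48% of all genes), and Ift88 differed by 0.08. Of 18 genes for the preassembly and docking of dynein arms, 11 were lower, with a median of -0.19. Markers of male germ cells, which also build an axoneme, had a median of 0.13 over 9 tested genes, and Acrv1 and Sycp1 were well above background on no array. Microglial markers had a median of 0.19 over 13 tested genes. Markers of neurons (13 of 14), astrocytes (11 of 11) and oligodendrocytes (10 of 12) were higher, with medians of 0.89, 0.97 and 0.74. Markers of monocytes and macrophages had a median of -0.19, those of neutrophils 0.01 and those of endothelial and mural cells 0.09. In all these lists 0 genes passed the adjusted threshold, and whether the lists differ from the members or from other genes was not tested.

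**Figure D5:**
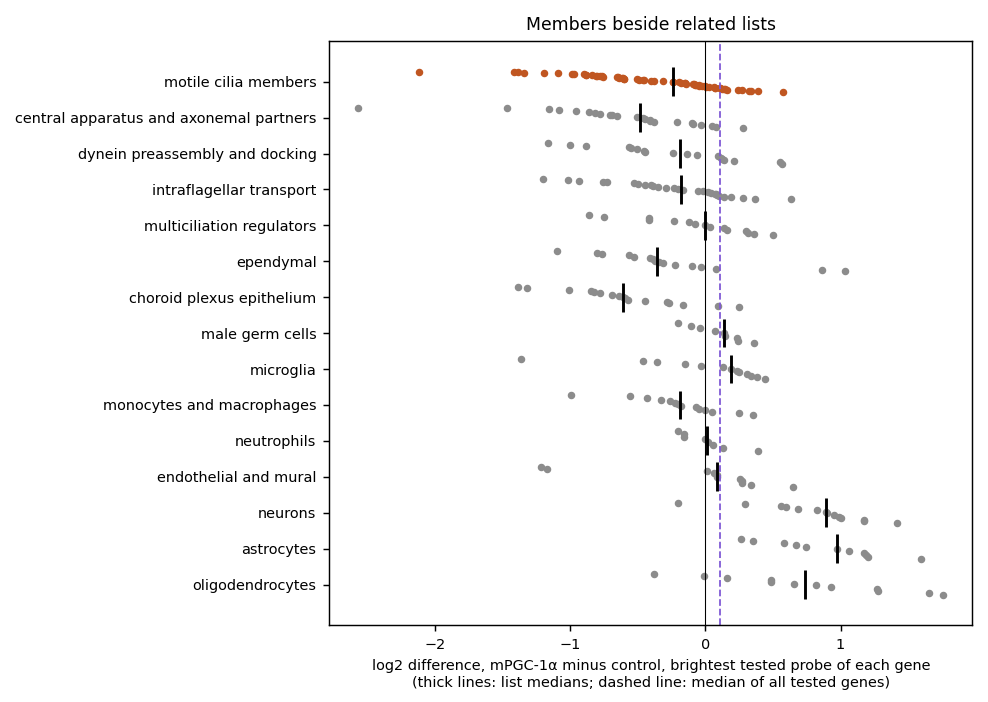
Log2 difference (mPGC-1α minus control, x axis) of each tested gene on its brightest probe, for the members (orange) and the related lists (grey, y axis), with list medians as thick lines and the median of all tested genes (0.11) as a dashed line. The members' median is -0.24, and the choroid plexus list has a median of -0.61 and the astrocyte list of 0.97.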

How the data were processed

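RNA of P2RY12-selected microglia was measured on 6 single-colour Agilent arrays, 3 labelled as control and 3 as mPGC-1α. The members and the related gene lists were chosen with earlier results of these data known. The deposited scanner files hold linear intensity values that the authors obtained with Agilent Feature Extraction 11.5.1.1, background-subtracted and detrended within each array. The authors' deposited series matrix holds log2 values normalized in GeneSpring 13. The labels name both Cy3 and Cy5 as the dye, and the files hold 1 green channel.

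Levels were taken from these files using R (version 4.3.3) and its package data.table, version 1.17.8. The log2 of each spot was taken, the log2 of the array's 75th percentile was subtracted, and the spots of a probe were then averaged. The percentile was taken over all probes that are not controls, on linear signals averaged over the spots of each probe. Spots marked as outliers were kept for the percentile and left out of the tests, and 0 spots were saturated. To be tested, a probe had to exceed background clearly, by the flag of the scanner software, on every unmarked array of at least 1 group (at least 2 such arrays) and to have at least 2 values per group. This left 40745 probes. Symbols came from matching accessions to RefSeq (GRCm38.p6), which named 33767 of 56605 probes (59.7%). Groups were compared with limma 3.58.1 (lmFit, eBayes with intensity trend, two-sided, group only) over all tested probes with Benjamini-Hochberg adjustment. The methods name no test for the arrays. The fit was tested on simulated data.

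Members were described in full where they were named singly in the rule, were among the 2 brightest of a family, had the largest difference of a family on the brightest or on any probe, or had probes whose differences were over 2 log2 units apart. In the related lists the rule took the 2 brightest genes. Other genes were named after their values were seen.

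Deviations of arrays with the same replicate number from their group means correlated at 0.247, 0.224 and 0.171 across probes, and those with different numbers at -0.337 to 0.0346, so samples with 1 number were treated as pairs. What the numbers mean is not given in the labels. Deviations within a group cancel out, so positive correlations for same numbers bring negative ones for different numbers. There were 2 slides and 1 day of scanning. Alternatives were quantile normalization, normexp correction (offset 50, on median spot signals) with quantile normalization, the authors' log2 values, no filter or a stricter filter, marked spots kept, the slide or the replicate number as a block, no intensity trend, the first slide only and leaving out each array. A percentile over unmarked spots only was added later.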

Additional observations from a re-analysis of the deposited data

How the results depend on the processing

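The median difference of the member probes was negative under every alternative run, between -0.57 and -0.28 when 1 array was left out and between -0.49 and -0.29 otherwise. For the brightest probes these ranges were -0.37 to -0.17 and -0.27 to -0.17. The median of all tested probes moved with the setting as well, from 0.08 to between 0.01 and 0.19, and was highest without control array 2, where the members' median was -0.18. The count of 14 member probes that were 2-fold or more lower was less stable. It was 5 after normexp with quantile normalization (5.43%, beside 1.9% of all tested probes) and 6 with the stricter filter, which tested 81 member probes (7.41%, beside 3.32%), and it ranged from 9 to 27 when 1 array was left out. It was 27 without control array 1 (29.7%, beside 3.5% of all probes), 23 without mPGC-1α array 2 (25.6%, beside 5.22%), 9 without mPGC-1α array 1 (10%, beside 4.66%) and 14 without control array 2 (15.4%, beside 7.63%). With all arrays it was 15.2%, beside 4.34%. The cause was not tested. Over all tested probes, 0 passed the adjusted threshold, 1 with the replicate block, 1720 with the replicate block and a percentile over unmarked spots only (chosen after seeing the data), and 0 to 2102 when 1 array was left out, with 2102 without control array 2. Of the member probes 7 passed without control array 2, 11 under the block with the unmarked percentile and 0 with the replicate block alone. The replicate block left the member counts and medians as they were. Of the 14 member probes that were 2-fold or more lower, 0 changed sign under the alternatives that tested them and 10 fell short of 2-fold in at least 1, while Cfap74, Cfap300, Rsph3b and Tekt4 changed sign under some. The number of arrays, and for dim probes the signal over background, limits the precision of these values.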
